A study of Mus musculus with 2 samples.

Results

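The angiopoietins and their Tie receptors are represented here by 4 genes, the ligands Angpt1 and Angpt2 and the receptors Tek (also called Tie2) and Tie1, which were taken by symbol from the 31053 genes of the deposited matrices. All 4 were present in both libraries. The data are single cell RNA-seq of sorted live cells from whole mouse hearts at postnatal day 1 (P1) and postnatal day 7 (P7). Each age is 1 library prepared from 3 pooled hearts of a single litter, digested with collagenase for 20 min at P1 and 45 min at P7. The labels give no genotype, strain, sex or treatment. The paper describes the hearts of both ages as intact. With 1 library per age there was no replicate and no test between ages, and all 95% intervals below cover counting error only.

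The P1 matrix held 7836 barcodes and 63585504 UMIs (unique molecular identifiers, so that a captured transcript counts once), and the P7 matrix held 9077 barcodes and 98346195 UMIs. After the cell filters 4991 cells (median 10875 UMIs) remained at P1 and 8511 cells (median 10104 UMIs) at P7, with 13 barcodes shared by both libraries. The libraries also differed in sex-linked transcripts, with 57336 Xist UMIs and 2 UMIs of 4 Y-linked genes at P1 against 12 and 18039 at P7, so age, sex of the pooled animals and digestion time cannot be told apart. Cells were assigned to classes by at least 2 UMIs of a marker: Cdh5 for endothelium (1629 cells at P1, 3223 at P7), Pdgfra for fibroblasts (962 and 1963), Myh11 for smooth muscle (132 and 371) and Kcnj8 for pericytes (191 and 347). Cells that passed more than 1 gate (189 and 331) were set aside as mixed. Within the endothelium, Gja5 marked arterial, Aplnr capillary, Npr3 endocardial and Prox1 lymphatic cells. The summed panel of further markers was highest in its own class for these 4 classes and these 4 subsets in both libraries. Levels are given as CPM, the UMIs of a gene divided by all UMIs of those cells and scaled to a total of 1000000. The lymphocyte gate, used here as a background class, carried more of the macrophage panel (6401 CPM) than of its own (1294 CPM) at P1 and more of the fibroblast panel (3350 CPM) than of its own (3080 CPM) at P7. The pericyte gate held more of the fibroblast panel (10797 CPM at P1 and 12549 CPM at P7) than of the pericyte panel (5543 and 9932 CPM). The endocardial gate also held the fibroblast panel at 1677 CPM at P1 and 3704 CPM at P7. Of its own panel, Nfatc1, Plvap, Cytl1 and Vwf were higher there than in all cells in both libraries. Hapln1 was lower, at 6.27 against 11.8 CPM at P1 and 1.30 against 4.05 CPM at P7.

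TEK is a receptor tyrosine kinase of the vascular endothelium. ANGPT1, secreted mainly by cells around the vessel, activates it and favours a quiescent, stable vessel wall, whereas ANGPT2 acts as a context-dependent antagonist or weak agonist and is classically released by endothelium during vessel remodelling. TIE1 binds neither ligand strongly but pairs with TEK and modulates its signal. In the heart, loss of the pathway impairs endocardial and coronary development, and TEK is commonly used as an endothelial marker and driver of endothelial Cre lines.

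On the GRCm38 build used for the deposited counts, GENCODE M21 places Tek (ENSMUSG00000006386) at chr4:94739289-94874976 on the plus strand and Tie1 (ENSMUSG00000033191) at chr4:118471191-118490061 on the minus strand, and no other annotated gene overlaps either. Angpt1 (ENSMUSG00000022309) spans chr15:42424723-42676977 on the minus strand, and its start overlaps the antisense gene Gm17473 on the plus strand. Angpt2 (ENSMUSG00000031465) lies at chr8:18690263-18741562 on the minus strand, inside Mcph1 on the plus strand. In both cases the overlapping genes lie on opposite strands, and 10x 3′ libraries keep the strand. Only Tek and Tie1 were matched in the RefSeq promoter table (GRCm38.p6). The bases in front of the Tek start are shown because Tek, unlike Tie1, was found outside the endothelium in what follows. They cover chr4:94739039-94739288 on the plus strand, with capitals marking GGAA, the core letters of ETS factor motifs, on either strand:
Tek: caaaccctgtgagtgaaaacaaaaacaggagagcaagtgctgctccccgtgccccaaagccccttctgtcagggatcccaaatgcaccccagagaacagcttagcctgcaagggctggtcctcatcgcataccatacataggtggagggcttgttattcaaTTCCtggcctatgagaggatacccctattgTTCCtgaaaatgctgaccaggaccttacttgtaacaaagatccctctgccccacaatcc
This stretch of 250 bases held 2 GGAA matches, a number reached or exceeded by 76.8% of the 32851 promoters in the table. The 250 bases before the RefSeq start of Tie1 held 7, which 3.82% of promoters reach. Neither held AGATAA, the letters of a GATA motif, on either strand, which 9.99% of promoters contain. A match is a description of letters and not of a binding site, and 212 of the Tie1 bases lie inside the longer GENCODE gene.

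The 4 genes were distributed differently over the cells. Tie1 was almost wholly endothelial, with 90.9% of its UMIs in the Cdh5 endothelium at P1 and 89.0% at P7, while the endothelium made up 32.6% and 37.9% of the cells. Tek was divided between endothelium (70.8% of its UMIs at P1 and 44.4% at P7) and fibroblasts (14.5% and 34.3%). Angpt2 UMIs came from endothelium (32.0% and 47.0%), smooth muscle (16.4% and 18.4%), fibroblasts (16.5% and 10.7%) and ungated cells (19.3% and 9.57%), although smooth muscle was only 2.64% and 4.36% of the cells. Angpt1 UMIs were mostly outside the endothelium, which held 3.97% and 3.47% of them, and the largest single share lay at P1 in cells that passed none of the gates (40.3%) and at P7 in fibroblasts (34.5%).

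**Figure D1:**
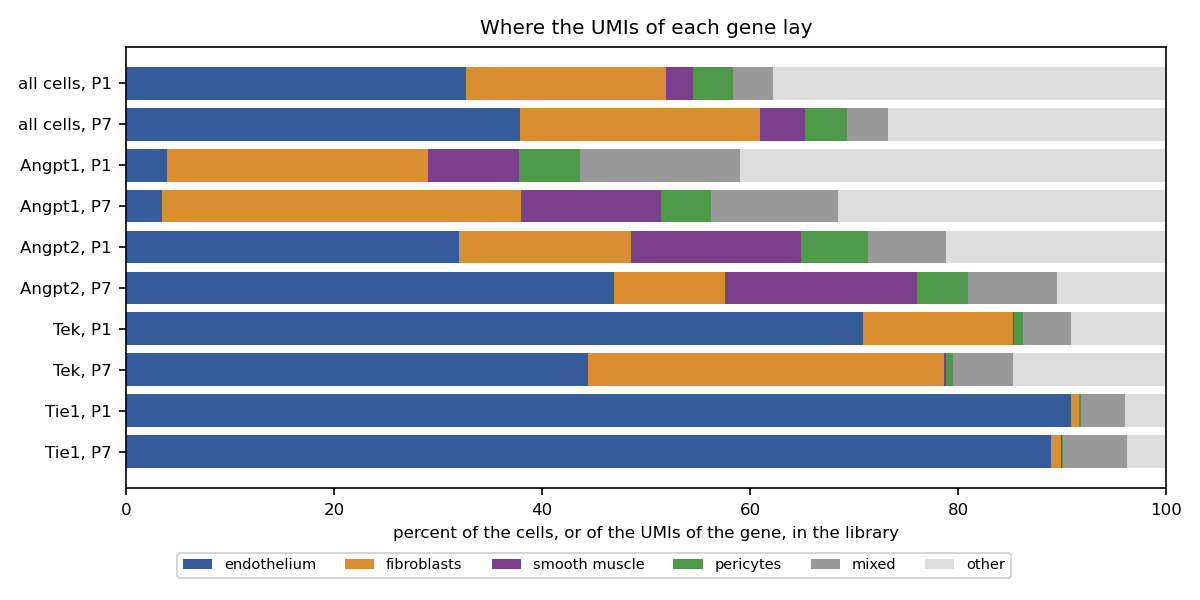
Percent of cells, and percent of the UMIs of each gene, that lay in each marker-gated class of the P1 and P7 libraries (horizontal stacked bars, x axis from 0 to 100%; other means cells outside the 4 gates). The endothelial share of Tek UMIs was 70.8% at P1 and 44.4% at P7, whereas that of Tie1 was 90.9% and 89.0%.

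Summed over all cells, none of the 4 genes differed by 2-fold between the libraries, where 12.9% of the 16552 genes with at least 20 UMIs did. Angpt1 was measured at 8.12 CPM at P1 and 5.62 CPM at P7, a log2 ratio of P1 over P7 of 0.53 (95% interval 0.35 to 0.71). Angpt2 was measured at 9.22 and 8.26 CPM, with a log2 ratio of 0.16 and an interval that reached 0 (-0.0019 to 0.32). Tek was lower at P1 (70.7 CPM) than at P7 (90.9 CPM), with a log2 ratio of -0.36 (-0.42 to -0.31). Tie1 was measured at 94.7 and 102 CPM, with a log2 ratio of -0.11 (-0.16 to -0.063). The counting intervals of Angpt1, Tek and Tie1 therefore left out 0, and that of Angpt2 did not. These sums follow the mix of classes as well as the level within each.

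Tie1 in the Cdh5 endothelium was 262 CPM at P1 (5082 UMIs) and 308 CPM at P7 (8867 UMIs), and 88.3% and 85.4% of endothelial cells held at least 1 Tie1 UMI. The log2 ratio of P1 over P7 was -0.23 (-0.28 to -0.18), against a median of -0.059 over all genes measured in the endothelium. Tie1 levels in the 4 marked endothelial subsets lay within 259 to 347 CPM: arterial cells had 346 and 322 CPM, capillaries 259 and 303 CPM (2260 and 5836 UMIs), endocardial cells 305 and 347 CPM and lymphatic cells 323 and 319 CPM. The arterial level was 1.34-fold (1.11 to 1.59) that of capillaries at P1 and 1.06-fold (0.947 to 1.19) at P7. The endocardial level was 1.18-fold (1.09 to 1.27) the capillary level at P1 and 1.15-fold (1.01 to 1.29) at P7, and its ratio to the arterial level had an interval that included 1 in both libraries. Outside the endothelium Tie1 was between 1.85 and 6.77 CPM in the fibroblasts, smooth muscle, pericytes, macrophages, lymphocytes and epicardial cells of both libraries. In macrophages and lymphocytes, taken here as background, it was 2.28 to 6.77 CPM. The fibroblast level of 2.35 CPM at P1 and 2.51 CPM at P7 was thus no higher than that.

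Tek in the endothelium was 152 CPM at P1 (2955 UMIs, 68.5% of cells) and 136 CPM at P7 (3932 UMIs, 59.5% of cells). The subsets differed more than for Tie1. Endocardial cells had the highest level, 288 CPM in 198 cells at P1 and 337 CPM in 61 cells at P7. Arterial cells followed with 154 and 191 CPM, then lymphatic cells with 104 and 135 CPM and capillaries with 131 and 129 CPM (1138 and 2492 UMIs). Endocardial Tek was 2.21-fold (2.01 to 2.41) the capillary level at P1 and 2.60-fold (2.28 to 2.95) at P7, and 1.86-fold (1.44 to 2.48) and 1.76-fold (1.45 to 2.13) the arterial level. Lymphatic and capillary levels did not differ beyond their counting error, and the lymphatic gate held only 13 and 21 cells.

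The Tek difference between ages was not the same in the whole endothelium and within its subsets. Over the whole endothelium Tek was higher at P1, with a log2 ratio of 0.16 (0.092 to 0.23). Within the subsets, however, it was close to equal or higher at P7, with log2 ratios of 0.013 (-0.089 to 0.11) in capillaries, -0.016 (-0.16 to 0.12) in cells with none of the subset markers, -0.23 (-0.43 to -0.016) in endocardial, -0.31 (-0.76 to 0.11) in arterial and -0.36 (-1.27 to 0.46) in lymphatic cells. The exception was the 24 and 23 cells with several subset markers (0.12, -0.29 to 0.53). Endocardial cells, the subset with the most Tek, were 12.2% of the endothelium at P1 and 1.89% at P7. Without cells carrying at least 2 Npr3 UMIs, endothelial Tek was 126 and 130 CPM, so that the ratio turned to -0.047 (-0.13 to 0.032). The Tie1 ratio in the same cells was -0.26 (-0.31 to -0.21). The part of the change of subset mix in the endothelial ratios was not tested.

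Both receptors were lower in endothelial cells with a UMI of the proliferation genes Mki67 or Top2a. Tie1 was 181 CPM in the 291 such cells at P1 and 289 CPM in the other 1338, and 252 CPM in 591 cells and 327 CPM in 2632 cells at P7. Tek was 119 against 164 CPM at P1 and 118 (from 881 UMIs) against 143 CPM at P7. The lower level in cycling cells was thus seen for both receptors in both libraries. These cells were also deeper (median 14654 against 10218 UMIs at P1 and 11047 against 7456 at P7), and the part of depth was not tested.

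**Figure D2:**
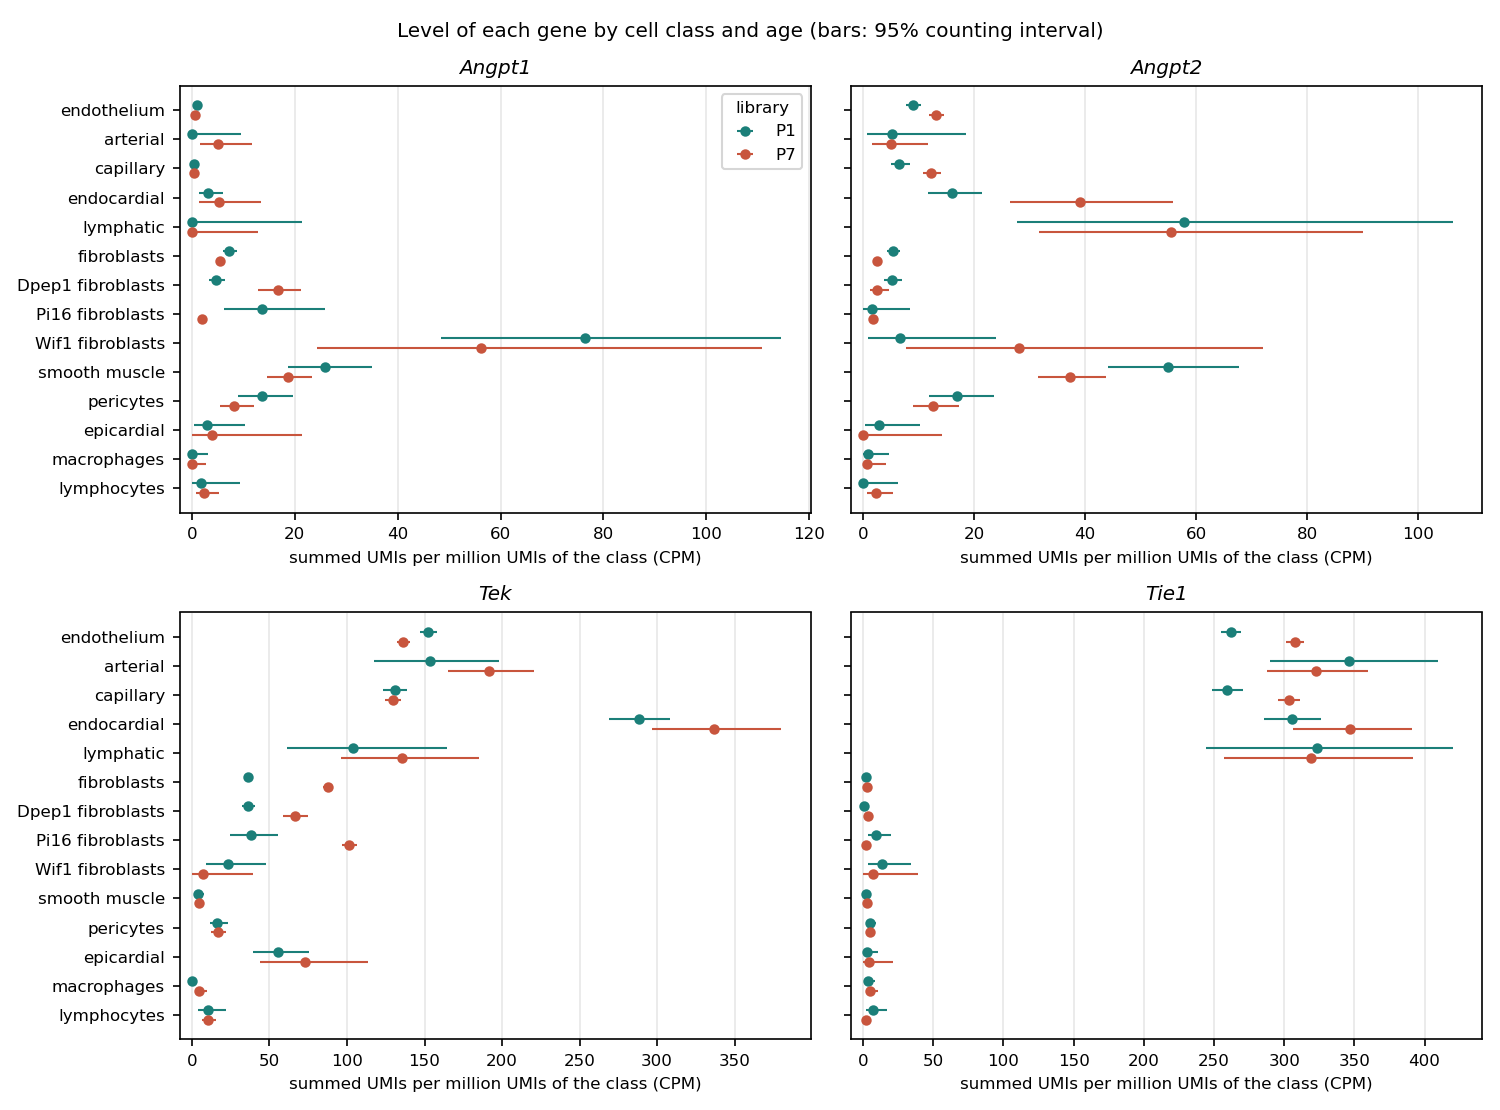
Level of each gene (x axis, CPM of the class, linear scale) in 14 classes of the P1 and P7 libraries; points are levels and bars 95% counting intervals. Tie1 separates endothelial from all other classes, Tek is highest in endocardial cells (288 and 337 CPM) and also present in fibroblasts and epicardial cells, Angpt2 is high in smooth muscle and lymphatic cells and Angpt1 in Wif1 fibroblasts.

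Fibroblasts carried Tek without Tie1, and the level differed more than 2-fold between ages. Tek in Pdgfra fibroblasts was 36.4 CPM at P1 (603 UMIs in 962 cells; 33.6 to 39.4) and 87.6 CPM at P7 (3038 UMIs in 1963 cells; 84.6 to 90.8). The P7 level was 2.41-fold (2.21 to 2.63) that of P1, a log2 ratio of P1 over P7 of -1.27 (-1.40 to -1.14). Of the 13913 genes measured in fibroblasts, 4.79% were at least 2-fold higher at P7. Tek was below all but 3.28% of genes in the order of these ratios. At P1 39.7% of fibroblasts held a Tek UMI and at P7 67.4%, with median depths of 16081 and 17147 UMIs. After each cell was thinned to 2000 UMIs the shares were 7.07% (5.52 to 8.89) and 15.2% (13.7 to 16.9). In lymphocytes, which should lack Tek, the share was 5.94% at P1 and 4.39% at P7 (medians of 4723 and 5226 UMIs), and 3.96% (1.09 to 9.83) and 1.34% (0.366 to 3.39) after thinning. The thinned P1 share in fibroblasts therefore overlapped that background, whereas the levels in CPM did not (10.2 CPM, interval 3.73 to 22.1, in P1 lymphocytes).

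The endothelial markers did not accompany Tek. In fibroblasts Tek reached 23.9% of the endothelial level at P1 and 64.3% at P7. Tie1 reached 0.898% and 0.816%, and a panel of 7 endothelial genes 0.884% and 0.729%. Cdh5 reached 0.525% and 0.462%, but this low level was set by the gates. Cells with at least 2 Cdh5 UMIs were kept out of the fibroblasts. Cells that passed several gates, set aside as mixed, had 61.9 and 93.2 CPM of Tie1. The ratio of Tek to Tie1 UMIs was 15.5 at P1 and 34.9 at P7 in fibroblasts against 0.581 and 0.443 in endothelium. Of fibroblasts with a Tek UMI, 5.50% at P1 and 4.38% at P7 also held a Tie1 UMI, compared with 91.7% and 89.4% of endothelial cells with a Tek UMI. Fibroblasts without a single UMI of Cdh5, Tie1 or the 7 panel genes had 36.1 CPM of Tek at P1 (499 cells) and 90.7 CPM at P7 (970 cells), a log2 ratio of -1.33 (-1.51 to -1.15). The Tek level was thus as large in cells with no detected endothelial transcript as in all fibroblasts.

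**Figure D3:**
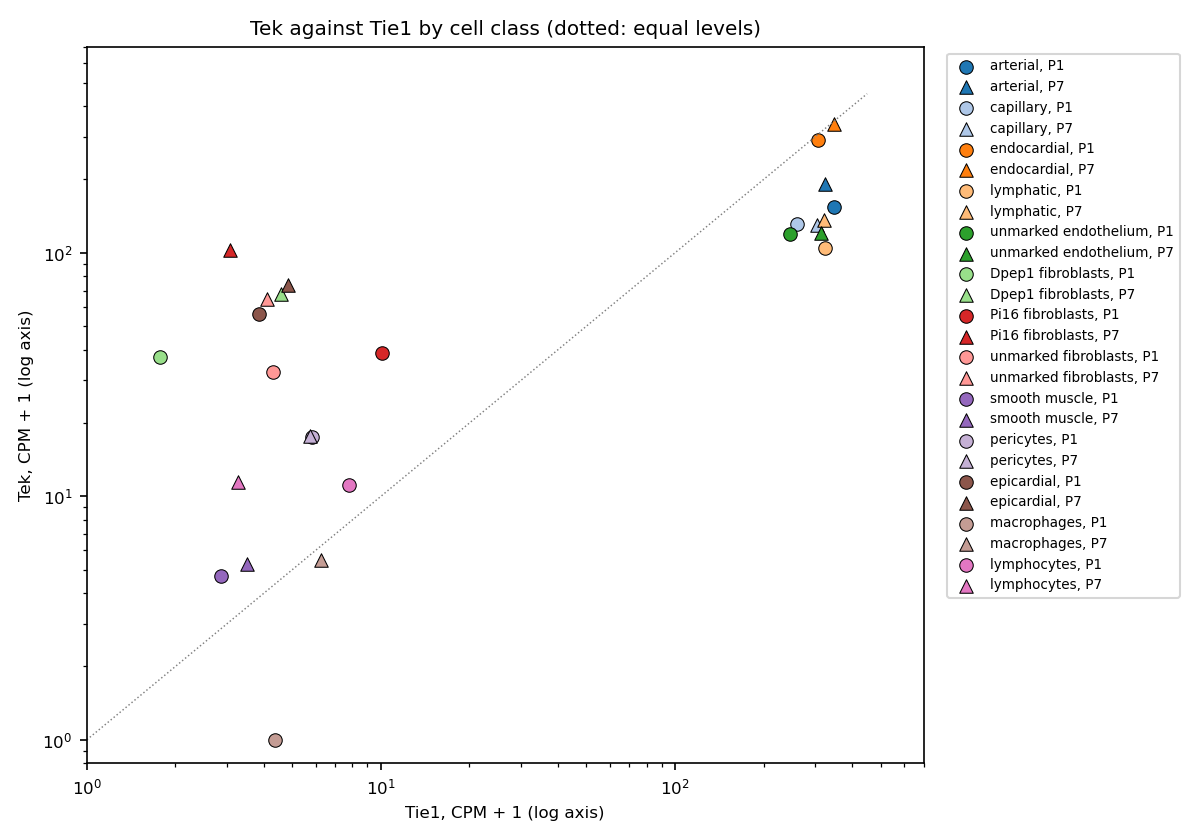
Tek level (y axis) against Tie1 level (x axis), both as CPM + 1 on log axes, in 13 classes of each library (circles P1, triangles P7; the dotted line marks equal values). Endothelial subsets lie together at the right, where Tie1 is at 244 to 347 CPM, and fibroblast subsets and epicardial cells lie at the upper left with Tek but little Tie1.

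Tek was spread across fibroblast subsets. Fibroblasts with Dpep1 had 36.2 CPM at P1 (280 UMIs, 419 cells) and 66.5 CPM at P7 (260 UMIs, 224 cells), a log2 ratio of -0.88 (-1.13 to -0.63). Those with none of the subset markers had 31.4 and 63.4 CPM, a log2 ratio of -1.01 (-1.27 to -0.77). Fibroblasts with Pi16, a marker of adventitial-type fibroblasts, had 37.8 CPM at P1 (25 UMIs, 31 cells) and 102 CPM at P7 (1618 UMIs, 847 cells). Fibroblasts with several subset markers, 10.4% of fibroblasts at P1 and 15.5% at P7, had 56.1 CPM (108 UMIs, 100 cells) and 102 CPM (615 UMIs, 305 cells), a log2 ratio of -0.86 (-1.18 to -0.57). In Pi16 fibroblasts the log2 ratio was -1.40 (-2.06 to -0.86), where 9.93% of genes were 2-fold higher at P7, and in unmarked fibroblasts, where 2.83% were, the ratio stood at the 2-fold line. All of these 4 sets had more Tek at P7. At P7 the Pi16 level was 1.52-fold (1.34 to 1.75) that of Dpep1 fibroblasts, and it was within counting error of the level in cells with several markers. Pi16 cells were 3.22% of fibroblasts at P1 and 43.1% at P7. The part of this change of mix in the difference over all fibroblasts was not tested. Outside the Pi16 gate Tek was 34.0 CPM at P1 and 63.1 CPM at P7, a log2 ratio of -0.89 (-1.05 to -0.73) and thus under 2-fold. Wif1 fibroblasts pointed the other way at very low counts, with 23.2 CPM at P1 (7 UMIs, 18 cells) and 7.03 CPM at P7 (1 UMI, 8 cells). All cells with at least 2 Wif1 UMIs, in or outside the Pdgfra gate, had 22.7 CPM (36 UMIs) and 14.0 CPM (23 UMIs) of Tek, a log2 ratio of 0.68 with an interval that included 0 (-0.10 to 1.52).

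Proliferating fibroblasts showed the same difference, with Tek at 31.2 CPM at P1 and 66.4 CPM at P7 in cells with a Mki67 or Top2a UMI (138 and 398 UMIs). Fibroblasts with a UMI of Wt1, a transcription factor of the epicardium and its derivatives, had 27.7 CPM at P1 (194 cells) and 87.4 CPM at P7 (54 cells). Leaving out fibroblasts with a UMI of the epicardial genes Upk3b, Msln or Krt19 gave 36.5 and 86.7 CPM. Cells that passed no broad gate but held at least 3 of 7 fibroblast panel genes had 27.4 CPM (1043 cells) and 79.6 CPM (1294 cells). Their Tek log2 ratio was -1.53 (-1.73 to -1.35), and they held 103 and 160 Tie1 UMIs beside 284 and 1174 of Tek. Ungated cells with fewer panel genes had a Tek ratio of -1.36 (-1.90 to -0.85), from 53 and 78 UMIs, and a Tie1 ratio of -1.73. Higher Tek at P7 in ungated cells was thus not limited to those with the fibroblast panel.

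Epicardial cells, gated on Upk3b outside the broad classes, also held Tek without Tie1, and their fibroblast panel stood at 21929 CPM at P1 and 20023 CPM at P7. Of the 47 epicardial cells at P1 and 21 at P7, 30 and 13 held no Tek UMI, while 6 and 3 held 4 or more. Over all of them Tek was 55.3 CPM at P1 (39.3 to 75.6, 39 UMIs) and 72.9 CPM at P7 (43.9 to 114, 19 UMIs), with 2 and 1 Tie1 UMIs. The log2 ratio of -0.42 (-1.22 to 0.48) did not separate the ages at this depth. Their endothelial panel stood at 5.70% and 5.31% of the endothelial level. In pericytes Tek was 16.4 CPM at P1 and 16.7 CPM at P7, in smooth muscle 3.71 and 4.28 CPM, and in macrophages 0 of 74 cells had a UMI at P1, which allows up to 3.11 CPM. Smooth muscle and macrophages were thus at or under the lymphocyte level, and the pericyte interval (11.4 to 23.0 CPM at P1) overlapped it.

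**Figure D4:**
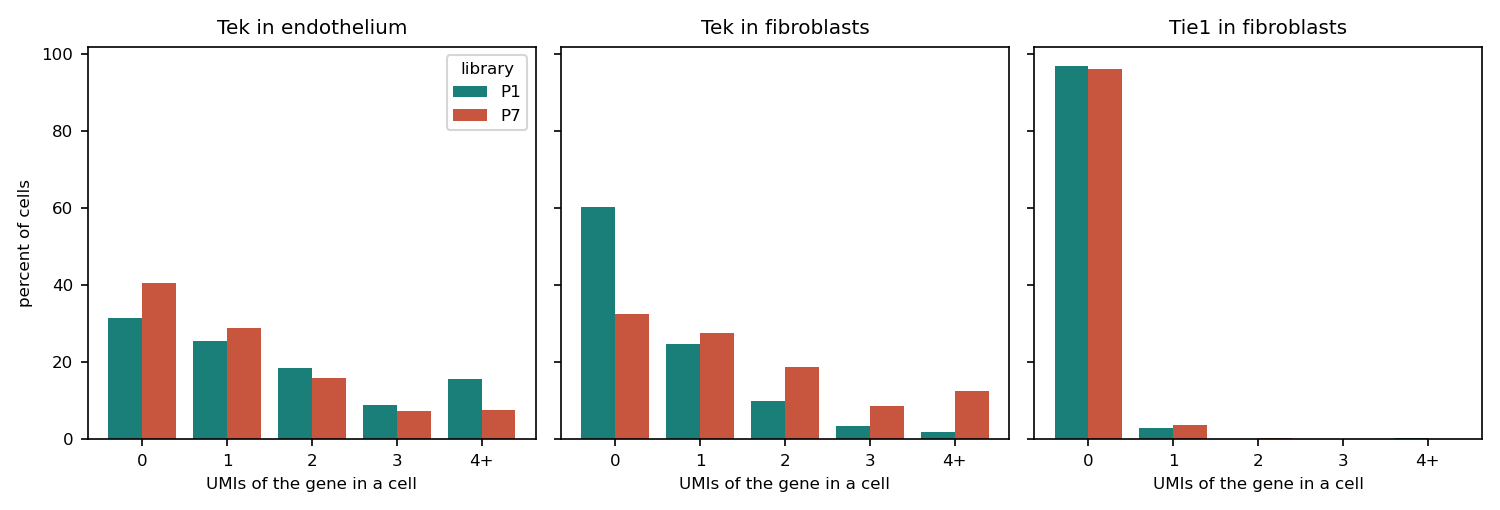
Percent of cells (y axis) by the number of UMIs of the gene in the cell (x axis, 4+ meaning 4 or more) for Tek in endothelium, Tek in fibroblasts and Tie1 in fibroblasts, at P1 and P7. Fibroblasts with 4 or more Tek UMIs were 1.77% at P1 and 12.4% at P7, while 96.9% and 95.9% of fibroblasts had no Tie1 UMI.

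Of the classes in the plot of levels, Angpt2 was highest in lymphatic endothelium and smooth muscle at P1. At P7 lymphatic cells were highest, and endocardial cells (39.1 CPM, 30 UMIs) lay beside smooth muscle. In Myh11 smooth muscle it was 55.0 CPM at P1 (89 UMIs, 43.2% of cells) and 37.2 CPM at P7 (148 UMIs, 29.6% of cells), a log2 ratio of 0.57 (0.17 to 0.95) that turned to -0.28 (-1.68 to 0.82) when thinning left 8 and 29 UMIs. No member passed 2-fold in smooth muscle or pericytes, where 8.6% and 6.19% of genes did. Smooth muscle had 6.14-fold (4.69 to 7.95) the endothelial Angpt2 level at P1 and 2.85-fold (2.33 to 3.44) at P7, and 3.22-fold (2.17 to 4.95) and 2.92-fold (2.07 to 4.29) that of pericytes, which held 16.9 and 12.6 CPM. Lymphatic cells had 57.8 CPM at P1 and 55.5 CPM at P7, but these levels rest on 10 UMIs in 3 cells and 16 UMIs in 5 cells. The intervals of smooth muscle and lymphatic cells overlapped in both libraries. In lymphocytes the background was 0 UMIs at P1, which allows up to 6.24 CPM, and 2.28 CPM at P7.

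Within the endothelium Angpt2 was higher at P7 in each of the larger subsets. Over the whole endothelium it was 8.98 CPM at P1 (174 UMIs) and 13.1 CPM at P7 (378 UMIs), a log2 ratio of -0.54 (-0.81 to -0.28). Capillaries had 6.54 and 12.3 CPM (57 and 237 UMIs; log2 ratio -0.90, -1.36 to -0.49) and endocardial cells 16.0 and 39.1 CPM (46 and 30 UMIs; -1.30, -1.98 to -0.57). Unmarked endothelial cells had 7.89 and 11.8 CPM (-0.58, -1.10 to -0.071), and arterial cells 2 and 5 UMIs. Of these, only the endocardial difference passed 2-fold, where 4.53% of the 9954 genes measured in endocardial cells were 2-fold higher at P7, and its 30 UMIs at P7 came from 10 cells with up to 10 in 1 cell. After thinning to 2000 UMIs per cell the endocardial ratio was -0.011 (-1.56 to 2.17) and that of the whole endothelium -0.24 (-0.84 to 0.31), both with intervals that included 0. Endothelial cells without a UMI of Myh11, Kcnj8, Pdgfra, Tagln or Acta2 gave nearly the same values, 8.55 and 12.3 CPM (-0.52, -0.88 to -0.17).

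Fibroblasts went the other way for Angpt2. Their level was 5.43 CPM at P1 (90 UMIs) and 2.48 CPM at P7 (86 UMIs), a log2 ratio of 1.13 (0.69 to 1.58), where 6.12% of genes in fibroblasts were at least 2-fold higher at P1. The P1 level was under the 6.24 CPM that 0 UMIs in P1 lymphocytes allow, and the P7 interval (1.98 to 3.06 CPM) included the P7 lymphocyte level. A count of 0 UMIs gives only an upper limit. At P1 the fibroblast level was 6.46-fold that of lymphocytes with a lower bound of 0.853, so the classes were not separated. Macrophages held 1 Angpt2 UMI in each library (0.843 CPM at P1 and 0.748 CPM at P7). Without cells carrying a UMI of Foxf1, Tbx4 or 4 Hox genes (a lung or posterior set), the ratio was 0.60 (0.097 to 1.09). Such UMIs were also found in endothelium, in cells with 1196 of 5082 endothelial Tie1 UMIs at P1 and 1695 of 8867 at P7. The tissue of origin of cells with such a UMI was not tested. Outside the Pi16 gate the fibroblast Angpt2 ratio was 0.73 (0.19 to 1.31). The 2-fold call in fibroblasts is therefore lost in both cases. By subset the log2 ratio was 0.96 (-0.0087 to 2.18) in Dpep1, 0.34 (-5.57 to 2.38) in Pi16 and 0.16 (-0.71 to 1.00) in unmarked fibroblasts. Each interval included 0. Fibroblasts with several subset markers had 2.24 (1.26 to 3.30), from 23 and 15 UMIs. Wif1 (-1.93) and Gdf10 (2.61) fibroblasts held at most 4 UMIs per library.

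**Figure D5:**
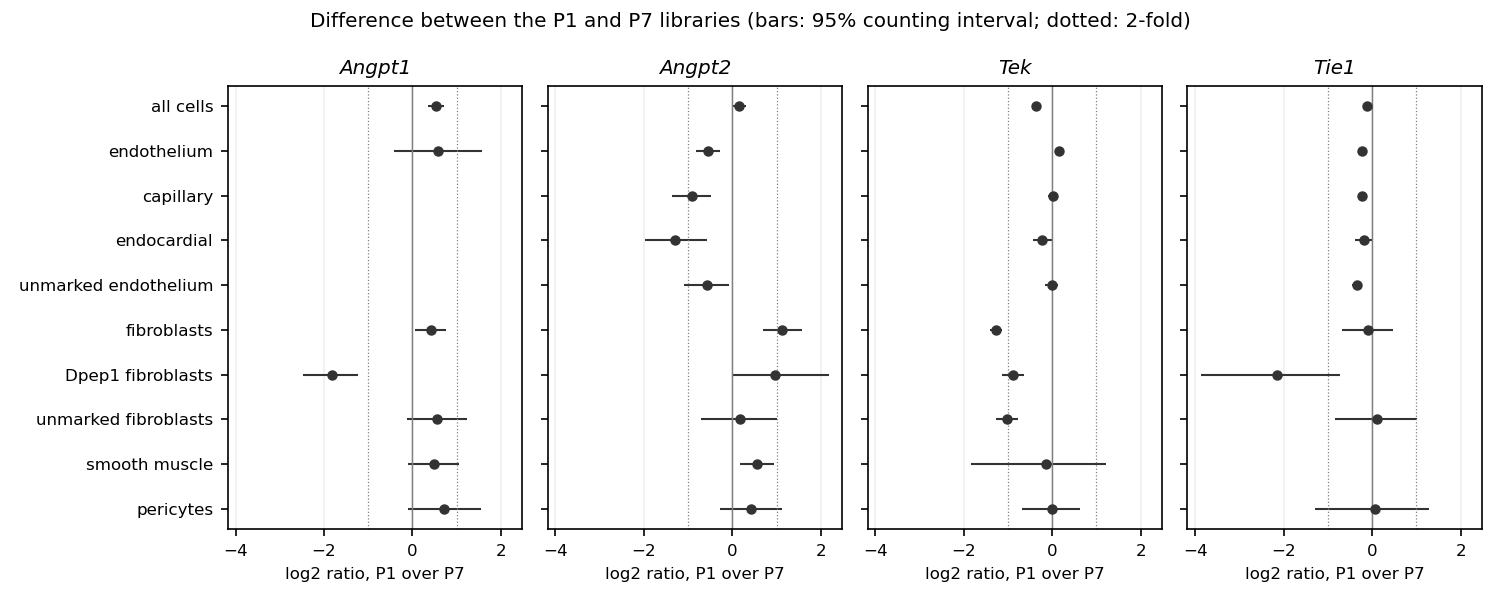
Log2 ratio of P1 over P7 (x axis) for each gene in 10 classes with at least 20 UMIs summed over both libraries; points are ratios, bars 95% counting intervals and dotted lines 2-fold. Tek in fibroblasts (-1.27) and Angpt2 in endothelium (-0.54) lie left of 0 and Angpt2 in fibroblasts (1.13) and smooth muscle (0.57) right of it. The Tie1 point in Dpep1 fibroblasts rests on 6 and 14 UMIs.

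Few endothelial cells held more than 1 Angpt2 UMI. Of 174 endothelial Angpt2 UMIs at P1 and 378 at P7, 110 and 243 came from cells with exactly 1. Those cells are in neither set below. Cells with at least 2 Angpt2 UMIs numbered 25 at P1 and 50 at P7, against 1494 and 2930 with none, and were deeper (median 15724 against 10516 UMIs at P1 and 10909 against 7724 at P7). In both libraries they had more of the endocardial gate gene Npr3 (453 against 120 CPM at P1, 87.9 against 24.4 CPM at P7) and of the lymphatic genes Prox1 (46.7 against 5.98 and 32.6 against 4.89 CPM), Lyve1 (231 against 60.8 and 58.2 against 9.61 CPM) and Mmrn1 (61.5 against 10.5 and 53.9 against 8.39 CPM). The vasoconstrictor gene Edn1 was also higher in them (241 against 70.6 and 69.5 against 23.3 CPM). Of the 12 genes of a list for tip cells, the leading cells of vascular sprouts, only Adm, which encodes the vasoactive peptide adrenomedullin, was more than 2-fold higher in these cells in both libraries (113 against 13.7 and 116 against 49.2 CPM). At P7 alone, Plaur (86.5 against 31.7 CPM) and Esm1 (19.9 against 10.2 CPM) also passed 2-fold. Lower by 2-fold were Nid2 (76.2 against 163 CPM) and Cxcr4 (0 against 152 UMIs) at P1 and Unc5b (56.7 against 116 CPM) at P7. The share of all genes past 2-fold between these sets was not measured, so the count has no background. Apln was 68.9 against 70.2 CPM at P1 and 196 against 106 CPM at P7, and Esm1 rested on 1 and 14 UMIs in the positive cells. At P1 the positive cells also had more of the smooth muscle genes Acta2 (221 against 24.2 CPM) and Tagln (175 CPM, 3.87 higher on the log2 scale), and at P7 Acta2 was 76.6 against 48.1 CPM (log2 ratio 0.68, 0.25 to 1.06) and Tagln 21.3 against 22.8 CPM. The part of mural transcripts and of depth in this comparison was not tested. Tek was 155 CPM in both sets at P1 and 111 against 139 CPM at P7, and Tie1 was 224 against 267 CPM and 264 against 311 CPM.

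Angpt1 was measured at higher levels in smooth muscle, pericytes and fibroblasts than in endothelium. It was 26.0 CPM at P1 (42 UMIs) and 18.6 CPM at P7 (74 UMIs) in smooth muscle, 13.5 CPM (28 UMIs) and 8.20 CPM (26 UMIs) in pericytes, and 7.25 and 5.45 CPM in fibroblasts. In endothelium it was 0.981 and 0.659 CPM (19 UMIs in each library), below the lymphocyte levels of 1.69 CPM (1 UMI; 0.0428 to 9.43) and 2.28 CPM (5 UMIs; 0.739 to 5.31), so Angpt1 over the whole endothelium was not detectable over background at this depth. Fibroblasts had 2.87-fold (0.754 to 171) the lymphocyte level at P1 and 2.18-fold (1.01 to 7.46) at P7. At P1 they were thus not separated from lymphocytes, whose level rests on 1 UMI. Macrophages, the other background class, held 0 Angpt1 UMIs in both libraries. Endocardial cells had 3.14 CPM at P1 (9 UMIs in 5 cells) and 5.22 CPM at P7 (4 UMIs in 3 cells). That was 6.41-fold (1.91 to 30.3) and 13.3-fold (2.77 to 46.8) the capillary level, which rests on 4 and 8 UMIs, and the endocardial intervals overlapped those of lymphocytes in both libraries. Smooth muscle exceeded pericytes 1.90-fold (1.16 to 3.21) at P1 and 2.24-fold (1.43 to 3.70) at P7. The log2 ratios of P1 over P7 in smooth muscle (0.49, -0.10 to 1.05) and pericytes (0.72, -0.10 to 1.55) had intervals that included 0.

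Of the classes in the plot of levels, Angpt1 was highest in fibroblasts with Wif1, which encodes a secreted Wnt inhibitor. Wif1 fibroblasts had 76.4 CPM at P1 (23 UMIs, 18 cells) and 56.3 CPM at P7 (8 UMIs, 8 cells). Most Wif1 cells lay outside the fibroblast class, which leaves out mixed cells. All cells with at least 2 Wif1 UMIs, 111 at P1 and 100 at P7, had 49.8 CPM (39.4 to 62.1) and 51.2 CPM (40.9 to 63.4), and 30.6% and 44.0% of them held an Angpt1 UMI. They contributed 16.5% and 15.3% of all Angpt1 UMIs. Their level did not differ detectably between the ages (log2 ratio -0.040, -0.50 to 0.42). This set was chosen after the values were seen.

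Angpt1 in fibroblasts moved in different directions by subset. Dpep1 fibroblasts had 4.66 CPM at P1 (36 UMIs in 26 cells) and 16.6 CPM at P7 (65 UMIs in 47 cells), a log2 ratio of -1.83 (-2.47 to -1.23), where 3.31% of 11736 genes were 2-fold higher at P7, and of -0.61 (-2.80 to 1.75) after thinning. Pi16 fibroblasts had 13.6 CPM at P1, from 9 UMIs in only 2 cells, and 2.01 CPM at P7 (32 UMIs in 25 cells), a log2 ratio of 2.82 (1.51 to 3.86) where 7.66% of genes were 2-fold higher at P1. Unmarked fibroblasts had 6.79 and 4.63 CPM (0.55, -0.13 to 1.23). Over all fibroblasts the log2 ratio was 0.41 (0.068 to 0.75), outside the Pi16 gate it turned to -0.41 (-0.80 to -0.020), and after thinning, with 23 and 14 UMIs, it was 1.74 (0.74 to 2.83). The sign of the pooled Angpt1 value thus changed with the subsets included.

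The ungated cells held 40.3% and 30.5% of Angpt1 UMIs, together with the fibroblast panel (18201 CPM at P1 and 33992 at P7) and the erythroid panel (6347 and 12262 CPM). Those with at least 3 fibroblast panel genes had 17.6 CPM at P1 (182 UMIs) and 10.9 CPM at P7 (161 UMIs), and the rest 4.54 and 4.34 CPM (11 and 6 UMIs). A further gate took cells with at least 2 UMIs of Inmt, a gene abundant in lung stroma, and 1 of Hsd11b1. It covered all cells outside the endothelial and mixed sets, ungated or not. At P1 14 such cells had 136 CPM of Angpt1 (16 UMIs), and no P7 cell passed that gate. Platelets, a known store of ANGPT1 protein, held 2 UMIs in 16 cells at P1 and 2 UMIs in 11 cells at P7.

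Further gene lists were read in the Cdh5 endothelium, where 5.26% of all genes were 2-fold higher at P1 and 4.35% at P7. Of 11 partners and regulators of receptor availability, 9 passed the minimum of 20 UMIs and none passed 2-fold. Their median log2 ratio was -0.19. The list includes Cdh5 (-0.28), the gene that sets the endothelial gate. Ptprb, a phosphatase that opposes TEK signalling, was 258 CPM at P1 and 326 CPM at P7 (-0.34, -0.39 to -0.29). Angpt4, the third ligand, had 0 UMIs in endothelium in both libraries. Of 15 signalling genes 14 passed the minimum, and Grb14, an adaptor, was 2-fold higher at P1 (4.13 against 1.87 CPM; log2 ratio 1.14, 0.62 to 1.67), with a list median of -0.18.

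Of 8 genes linked to FOXO1 or flow, Cited2, a transcriptional regulator, was 2-fold higher at P1 (62.6 against 28.0 CPM; 1.16, 1.03 to 1.29) and none was 2-fold higher at P7, with a median of 0.037. Foxo1 itself, the transcription factor that TEK signalling restrains, was 62.4 and 66.5 CPM. Of 12 tip cell genes all passed the minimum and 4 were 2-fold higher at P7: Adm (15.8 and 54.4 CPM; -1.78), Cxcr4 (8.72 and 28.8 CPM; -1.72), Unc5b (53.4 and 112 CPM; -1.07) and Dll4 (45.3 and 92.4 CPM; -1.03), with a median of -0.55. Of 7 angiopoietin-like genes 5 passed, and Angptl4, an inhibitor of lipoprotein lipase, was 2-fold higher at P1 (199 and 67.4 CPM; 1.56, 1.48 to 1.64), with a median of -0.24. Of 12 genes known to respond to tissue digestion, none passed 2-fold, with a median of 0.072. In fibroblasts 1 of 9 partners passed 2-fold (Mmrn2, 4.89 and 2.11 CPM, higher at P1), where 6.12% of all genes were 2-fold higher at P1 and 4.79% at P7. Of 8 FOXO1 or flow genes there, 1 was 2-fold higher at P1 and 2 at P7, and of 11 tip cell genes 2 were higher in each direction. Cxcr4 (2.11 and 0.894 CPM) and Unc5b (70.6 and 26.4 CPM) were higher at P1, whereas Esm1 (0 and 27 UMIs) and Dll4 (4 and 26 UMIs), both under 1 CPM, were higher at P7. None of the 14 signalling, 5 angiopoietin-like and 12 digestion genes measured there did, and Foxo1 was 26.9 CPM at P1 and 45.2 CPM at P7 (-0.75, -0.90 to -0.60).

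The genes most like each member were ranked by the correlation of log2(CPM + 1) over 27 points, each a class in 1 library with at least 20 cells. These points share libraries and differ in depth, so the coefficients are descriptions. Wif1 fibroblasts (18 cells at P1 and 8 at P7) and P1 lymphatic cells (13), high in Angpt1 and Angpt2 respectively, had too few cells to be points. Tie1 was most like Egfl7 (r = 0.98), Rasip1 (0.98), Ccm2l (0.98), Mmrn2 (0.97) and Nos3 (0.97), all endothelial genes. Tek was most like Heg1 (0.94), Ramp2 (0.91), Zfp423 (0.90), Ece1 (0.88) and Hs3st1 (0.87), and its r with Tie1 was 0.72. Angpt1 was most like Pde5a (0.86), Gm32618 (0.85), Vasn (0.84), Itga8 (0.84) and AI838599 (0.84). Angpt2 was most like Lims1 (0.86), Mustn1 (0.83), C2cd2 (0.81), Tspan2 (0.81) and Map4k4 (0.79). The ligands had an r of 0.30 with each other.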

How the data were processed

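The authors aligned the reads to mm10 (GRCm38) with Cell Ranger 3.1.0, per the labels, and deposited 1 matrix of raw UMI counts a library, in which barcodes with few genes were still present. Barcodes with 200 to 8000 genes and at most 20% mitochondrial UMIs were kept, the mitochondrial limit being set here. Classes needed at least 2 UMIs of a marker. Counts were summed per class and library and scaled to CPM. Ratios of P1 over P7 add 0.5 counts to each sum and carry exact conditional 95% intervals, levels carry exact Poisson intervals and shares exact Clopper-Pearson intervals. The script was tested on simulated data. A gene counted as 2-fold different at a log2 ratio of at least 1 with 20 summed UMIs. No doublet caller was used in the main setting. Named genes are the 4 members, up to 4 genes per list and direction past 2-fold in endothelium, the 5 most alike genes per member among those with at least 200 UMIs, and the tip cell list. Members and lists were chosen with earlier results of these data known, and Ptprb, Foxo1, Angpt4, the fibroblast list genes and the genes outside the tip cell list in Angpt2-positive cells after values were seen. Alternatives varied filters, gates, doublets, scaling, depth and class composition. Analyses used python 3.11.15, numpy 2.4.6, scipy 1.17.1 and pandas 2.3.3.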

Additional observations from a re-analysis of the deposited data

Results flagged for a closer look

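In 3 pairs of classes the same gene had ratios of P1 over P7 in opposite directions, each with a counting interval that left out 0. Tek was at 0.16 in endothelium and -1.27 in fibroblasts on the log2 scale, a difference of 1.43, and the endothelial value turned to -0.047 without Npr3 cells. Angpt2 was at -0.54 in endothelium against 1.13 in fibroblasts, a difference of -1.67, and against 0.57 in smooth muscle, a difference of -1.11. After thinning to 2000 UMIs per cell the smooth muscle ratio turned to -0.28 and the endothelial one was -0.24 (-0.84 to 0.31). The fibroblast Angpt2 levels were not separated from the lymphocyte background, which at P1 was 0 UMIs and so gave only an upper limit. In Dpep1, Pi16 and unmarked fibroblasts the intervals of the Angpt2 ratio included 0. With 1 library per age none of these differences was tested.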

How the results depend on the processing

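No paired analysis was possible because each age is 1 library with no replicate. Of 349 recomputed log2 ratios of P1 over P7, 315 stayed within the interval reported, 29 left it and 5 called ratios changed sign. Reversals were Tek in endothelium when gated on marker panels (-0.018) and without Npr3 cells (-0.047), Angpt1 in fibroblasts without Pi16 cells (-0.41), and Angpt2 in smooth muscle when gated on panels (-3.31, from 0 and 3 UMIs) and after thinning to 2000 UMIs per cell (-0.28, from 8 and 29 UMIs). Tek in fibroblasts kept its direction in all 16 alternatives, at -1.42 with a gate of 1 UMI, -1.40 with panels, -1.14 thinned and -0.89 without Pi16 cells. Thinning gave 0.95 for Angpt1, -0.30 for Tek and -0.44 for Tie1 in all cells, -0.24 for Angpt2 and 0.068 for Tek in endothelium, and 1.74 for Angpt1 in fibroblasts. The mean of per-cell CPM gave 0.78 for Angpt1, -0.0083 for Angpt2 and -0.40 for Tie1 in all cells. Removing simulated doublets gave -0.029 for Tie1 in all cells. Panels gave -0.35 for Tie1 in endothelium, 0.64 for Angpt2 in fibroblasts, -0.50 for Angpt1 in smooth muscle and -1.44 for Angpt2 in pericytes, the last 2 from at most 1 UMI per library. Tie1 in endothelium was -0.17 with mixed cells kept and -0.17 with the median gene set to no change. Angpt2 in fibroblasts was 0.60 without cells carrying a UMI of the lung or posterior set. The gate of 1 UMI gave 251 CPM for Tie1 in P1 endothelium. Thinned shares of cells were 26.1% and 25.3% for Tek in endothelium, 42.4% and 47.5% for Tie1 in endothelium and 7.07% and 15.2% for Tek in fibroblasts. With no minimum above 1 UMI, 4973 genes in endothelium and 4739 in fibroblasts passed 2-fold, and with a minimum of 50 UMIs 844 in endothelium, against 1309 and 1519 reported. The cause of these changes was not tested. Depth limits Angpt1 and Angpt2 most, since several classes rest on fewer than 50 UMIs.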

Other observations

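Svep1, which encodes an extracellular protein known to bind TIE1, was 74.1 CPM at P1 and 69.7 CPM at P7 in fibroblasts and 1.29 and 1.94 CPM in endothelium. In fibroblasts the flow-responsive transcription factor gene Klf2 was 444 CPM at P1 and 1329 CPM at P7 (log2 ratio -1.58) and Klf4 193 and 442 CPM (-1.19), while Ccnd1 was 2-fold higher at P1 (296 and 145 CPM; 1.03).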
